A study of Mus musculus with 6 samples.

Results

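The genes described here are 10 components of the JAK-STAT pathway, Socs1, Socs2, Socs3, Cish, Jak1, Jak3, Stat3, Stat5a, Stat5b and Stat6, taken by symbol from the 55401 genes listed in each library's count table. Each symbol matched 1 row. They were read in 6 RNA sequencing libraries of germinal centre B cells sorted from the spleen, 3 from a subset labelled DP and 3 from a subset labelled DN. All 6 came from C57BL/6 mice of genotype WT immunised in the peritoneal cavity with SRBC, sheep erythrocytes that evoke a T-dependent response, challenged again after 5 days and killed on day 12. All carried the same batch label, and 3 mice are said to have given both subsets, but the labels do not tie a library to a mouse, say what DP and DN stand for or give an age. The p-values reflect the scatter among libraries alone, part of which may be technical.

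Cytokines act on B cells through paired receptor chains that carry Janus kinases (JAK). The kinases phosphorylate STAT proteins, which enter the nucleus and switch on genes. Among the first genes switched on are the SOCS (suppressor of cytokine signalling) proteins and CIS, the product of Cish, which then block the receptor, the kinase or the STAT and so close a feedback loop. In the germinal centre the pathway is best known for IL-21 and IL-4, which come from follicular helper T cells and act mainly through STAT3 and STAT6.

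The promoters of Socs3, Cish and Socs1 are shown because they held matches to short elements that STAT or interferon regulatory factors bind. The promoter sequences are RefSeq's for build GRCm38.p6 (250 bases before to 50 after a gene's start), 5′ to 3′, and 9 of the 10 genes had an entry, all but Socs2. Capitals mark TTCNNNGAA, the core element that STAT dimers bind, or GAAA repeated after any 2 bases, the core of the element that interferon regulatory factors bind, both searched on both strands.
Socs3, chr11:117969317-117969616, minus strand: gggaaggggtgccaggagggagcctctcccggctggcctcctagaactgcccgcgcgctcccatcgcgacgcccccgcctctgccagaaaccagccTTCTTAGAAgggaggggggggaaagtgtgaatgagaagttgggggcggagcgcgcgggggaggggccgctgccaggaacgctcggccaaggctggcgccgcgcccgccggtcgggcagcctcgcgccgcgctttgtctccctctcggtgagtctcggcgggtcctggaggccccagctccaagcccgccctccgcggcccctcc
Cish, chr9:107296409-107296708, plus strand: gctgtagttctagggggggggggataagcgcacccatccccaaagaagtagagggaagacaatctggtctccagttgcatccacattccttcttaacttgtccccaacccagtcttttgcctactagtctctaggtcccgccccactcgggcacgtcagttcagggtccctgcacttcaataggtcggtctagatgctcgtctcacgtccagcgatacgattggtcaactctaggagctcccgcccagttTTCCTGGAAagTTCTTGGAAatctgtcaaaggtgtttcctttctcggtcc
Socs1, chr16:10785487-10785786, minus strand: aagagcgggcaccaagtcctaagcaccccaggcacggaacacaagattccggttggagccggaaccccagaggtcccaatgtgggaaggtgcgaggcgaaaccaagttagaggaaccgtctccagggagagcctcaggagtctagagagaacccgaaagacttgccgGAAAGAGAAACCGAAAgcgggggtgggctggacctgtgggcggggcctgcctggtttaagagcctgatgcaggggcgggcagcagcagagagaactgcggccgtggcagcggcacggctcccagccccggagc
Socs3 held 1 match to the STAT core, 154 bases before its start, and Cish held 2, at and just after its start. Socs1 held 2 overlapping matches to the GAAA repeat, 83 and 77 bases before its start, and none to the STAT core. TTCNNNGAA occurred in 8.30% of all 32851 promoters of the table and the GAAA repeat in 3.44%. TTC and GAA set 4 bases apart, the wider spacing preferred by STAT6, occurred in 6.95% of all promoters and in none of those of the 9 genes, and the other 6 genes with an entry held none of the 3 letter patterns in these windows.

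Of the 10 genes, 9 had enough counts to be tested and 8 of those passed an adjusted p of 0.05 in edgeR's quasi-likelihood test (Benjamini-Hochberg over all 11296 tested genes), 6 higher in DP and 2 lower. Among all tested genes 75.9% passed, 38.3% higher in DP and 37.6% lower, so a pass by most of the 9 says little about this set. Their split by direction, 6 to 2, was less even than that background and was not tested. The direction and call of all 9 were the same with the 3 other scalings tried. Socs2 and Socs3, both feedback genes, had the largest fold changes of the 9. Of the 9 tested, 3 rose at least 2-fold (Socs2, Socs3 and Stat5a) and none fell at least 2-fold, against 12.3% of all tested genes that rose and 12.8% that fell by that much, 25.1% in all. Socs2 and Socs3 had at most 1 and 5 counts in any DN library, under the filter's minimum count of 10. They were thus tested only because of their DP libraries, and this split at 2-fold depends on that. The median log2 fold change was 0.51 over the 9, against 0.01 over all tested genes. The 10 genes were chosen with earlier results of these data known, so these comparisons depend on that choice. Jak2 (-1.62) and Stat2 (-1.18), which fell at least 2-fold, lie outside the set. Levels are given as normalised counts (CPM, a gene's counts scaled to a common library size with TMM factors), and changes as log2 fold changes of DP over DN ± standard error.

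**Figure D1:**
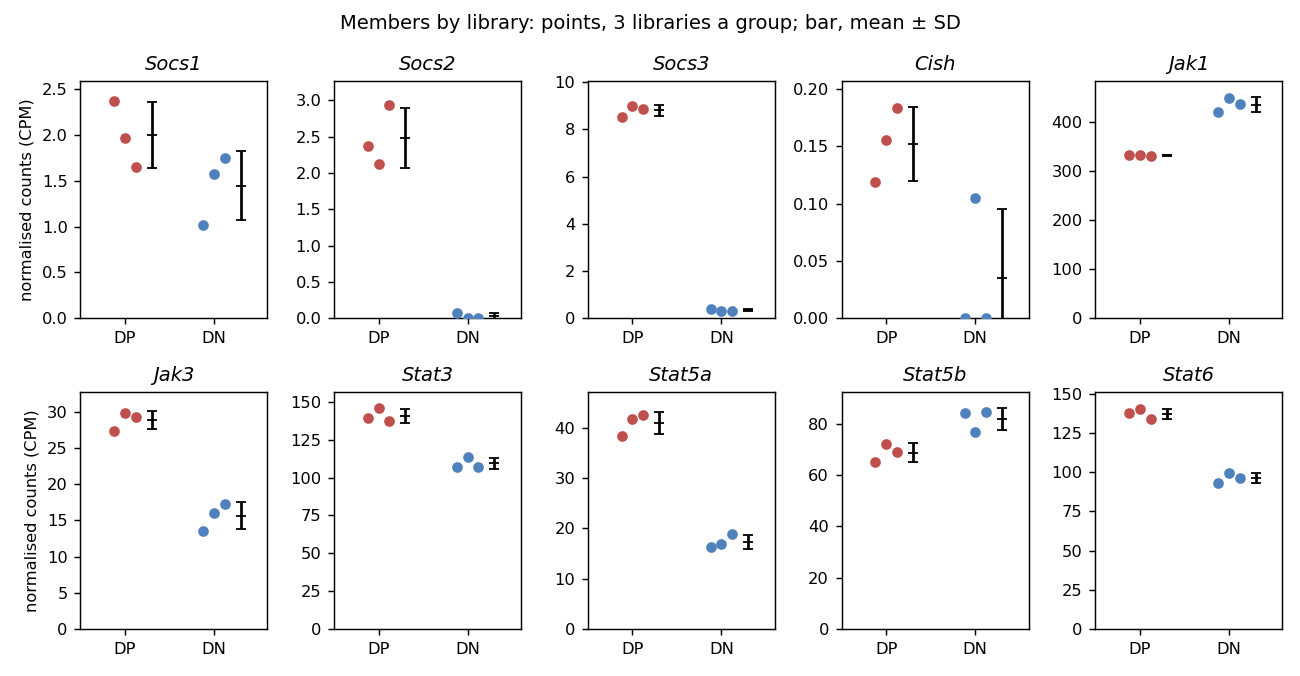
Normalised counts (CPM, vertical axes from 0, each panel on its own scale) of the 10 genes in the 3 DP and 3 DN libraries; points are libraries, bars beside them the mean ± SD, and the lower SD bar of Cish in DN is cut at 0. The DP and DN points overlap only for Socs1, and the DN points of Socs2 and Socs3 lie at or near 0.

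Libraries held 17509384 to 20538024 gene counts in DP and 8904415 to 11897360 in DN, a mean ratio of 1.88. A floor of 3 counts stood at 0.155 to 0.183 CPM in DP and 0.236 to 0.315 CPM in DN libraries, which covers counting error only. All 12 germinal centre B cell markers checked were detected in every library and passed as lower in DP, against 37.6% of all tested genes. Their summed level was 1960 to 2023 CPM in DP and 4392 to 4481 CPM in DN. Libraries of one group differed by more than sampling noise in every pair and were kept as 3 samples. The excess was small, with a common coefficient of variation beyond counting error of 3.31% in the edgeR fit. It may be technical and cannot show that the libraries came from different animals.

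Socs3, whose product binds the shared receptor chain gp130 and JAKs and limits STAT3 signalling, had 8.55, 9.01 and 8.86 CPM in the DP libraries, against 0.393, 0.315 and 0.308 CPM in the DN libraries. The DN values came from 5, 3 and 3 counts, at or just above the floor of their libraries, and the groups lay far apart. The rise was 4.64 ± 0.27 (edgeR adjusted p = 8.57e-24). Of all tested genes 0.301% had a larger change in either direction, but Socs3 passed the count filter through DP alone. The summed counts, 463 in DP and 11 in DN, differed 25.6-fold per library size (14.2 to 51.7, exact 95% interval for counting error). The promoter with 1 STAT core match shown above is that of this gene (ENSMUSG00000053113.3), annotated as protein coding on chromosome 11 from 117966079 to 117970047 on the minus strand of mm10.

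Socs2, best known as the feedback inhibitor of the growth hormone receptor, was nearly silent in DN. It had 2.37, 2.12 and 2.93 CPM in the DP libraries, from 40, 41 and 48 counts, and 0.0786, 0 and 0 CPM in the DN libraries, from 1, 0 and 0 counts. Every DP library stood above every DN library, and the DN group was under its floor. The ratio of the summed counts was 78.6, and with 1 count in DN the exact 95% interval ran from 13.9 to 3127. The fitted change was 5.94 ± 0.61 (edgeR adjusted p = 3.88e-13), and it was 8.15 without DN replicate 1, the only DN library with a count. Socs2 (ENSMUSG00000020027.18) lies on chromosome 10 from 95385362 to 95417180 on the minus strand of mm10.

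Socs1, which inhibits JAK activity directly and limits responses to interferons and IL-4, did not pass. It had 2.37, 1.97 and 1.65 CPM in the DP libraries and 1.02, 1.57 and 1.74 CPM in the DN libraries, and the groups overlapped. The log2 difference was 0.50 ± 0.28 (edgeR adjusted p = 0.103), and the ratio of the summed counts, 105 in DP and 45 in DN, was 1.42 (0.993 to 2.06, exact 95% interval for counting error). A change of the size seen for Socs3 lies outside that interval, while no change lies inside it. Cish, an early target of STAT5 whose product dampens IL-2 and related receptors, was at the limit of detection and was not tested. It had 2, 3 and 3 counts in the DP libraries and 0, 1 and 0 in the DN libraries, 4.87-fold per library size (0.653 to 216 by the same interval). The 4 feedback genes of the set thus ran from a gene at or under the floor in every library to one at about 9 CPM, and of the 3 tested, Socs2 and Socs3 passed. The DP libraries of Cish lay above its DN libraries, with 2, 3 and 3 counts against 0, 1 and 0.

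Genes whose pattern was most like that of Socs2, the member with the highest fold change, were Ankrd33b, Socs3 and Smyd2. Likeness was the Euclidean distance of gene-centred log2 CPM over the 6 libraries, among 8187 protein-coding genes that averaged 5 CPM or more in one of the groups. Socs2 itself averaged 2.48 CPM in DP, so other genes at its level were not candidates. Ankrd33b lay at a distance of 0.493, Socs3 at 0.548 and the lysine methyltransferase gene Smyd2 at 0.629. Their log2 fold changes were 4.04, 4.64 and 4.08, all smaller than the 5.94 of Socs2. The log2 CPM used a prior count of 2, which narrows differences at low counts. The 6 libraries form 2 groups, which limits what this distance can tell apart.

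The 2 kinases moved in opposite directions. Jak1, which serves most receptors of the germinal centre together with a partner kinase, had 332, 333 and 329 CPM in the DP libraries and 419, 449 and 436 CPM in the DN libraries. The DP libraries lay within a few CPM of one another and all below DN, a fall of 0.39 ± 0.04 on the log2 scale (edgeR adjusted p = 8.75e-15). Jak1 was the member with the lowest fold change, and the nearest patterns by the same distance were those of Rps27 (0.0240), Mllt10 (0.0262) and Necap2 (0.0364), among 8186 genes. Jak3, which binds only the common gamma chain of the receptors for IL-2, IL-4, IL-7, IL-9, IL-15 and IL-21, had 27.4, 29.8 and 29.3 CPM in the DP libraries and 13.6, 16.1 and 17.2 CPM in the DN libraries. The groups did not overlap, and Jak3 rose by 0.90 ± 0.09 (edgeR adjusted p = 4.19e-14).

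Jak1 (ENSMUSG00000028530.14) lies on chromosome 4 from 101152367 to 101265282 and Jak3 (ENSMUSG00000031805.17) on chromosome 8 from 71676296 to 71690575 of mm10. Jak3 shares 404 bases of exon with Insl3 on the same strand, whose counts were 3, 3 and 0 in DP and 0, 0 and 1 in DN. Reads in the shared exon could be left out as ambiguous. Ambiguous reads had a row of their own, with 2.04% of counts in DP and 2.00% in DN on average. That row is not split by gene, and how reads of this exon were treated is not given in the sources used here.

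The kinases outside the set fell in DP. Jak2, the kinase of the interferon gamma, IL-12 and growth hormone receptors among others, had 50.03, 46.4 and 48.0 CPM in the DP libraries and 151, 149 and 144 CPM in the DN libraries. This fall of 1.62 ± 0.05 (edgeR adjusted p = 4.65e-38) was larger than that of either Jak1 or Tyk2. Tyk2, a kinase of the type I interferon and IL-10 receptors, had 21.0, 22.3 and 19.2 CPM in the DP libraries and 27.8, 28.6 and 28.9 CPM in the DN libraries, a fall of 0.44 ± 0.08 (edgeR adjusted p = 1.46e-06). Jak3 was thus the only one of the 4 kinases that was higher in DP, also with each of the 3 other scalings tried.

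Per kilobase of exon, where genes can be compared, the 4 kinases together stood at 63.8 ± 0.404 CPM per kilobase in DP and 96.6 ± 2.08 in DN (SD, n = 3 each). Jak1 made up 71.8% ± 0.0978 of that sum in DP and 62.3% ± 0.870 in DN, while its own level was lower in DP. Jak3 made up 8.44% ± 0.387 in DP and 3.02% ± 0.331 in DN. For both shares all DP libraries lay above all DN libraries (exact permutation p = 0.1, two-sided, a value 3 against 3 libraries cannot go below).

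**Figure D2:**
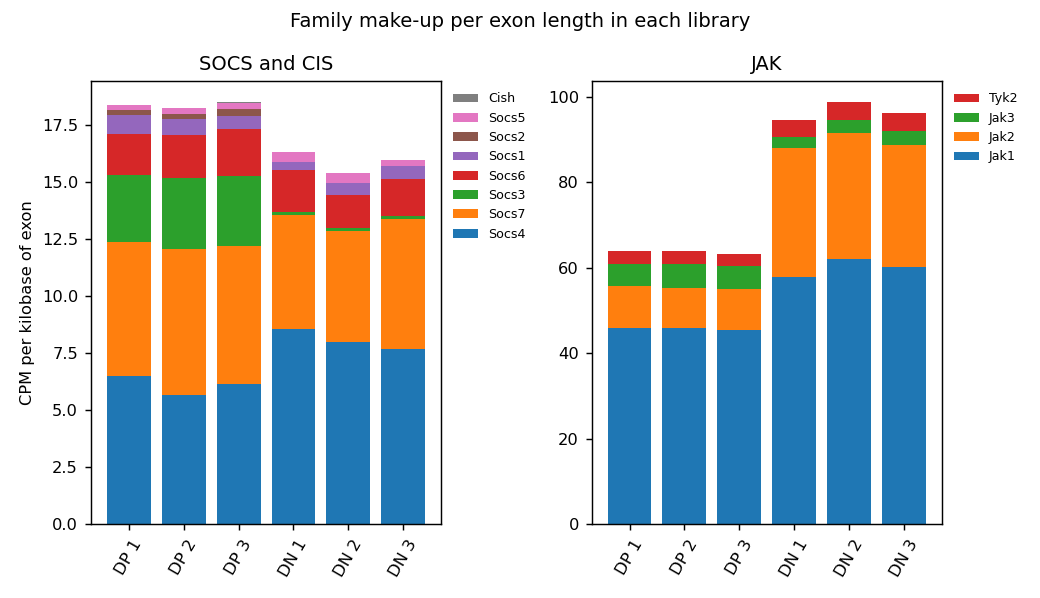
Stacked levels (CPM per kilobase of exon) of the SOCS and CIS genes and of the JAK genes in each library, DP libraries left and DN libraries right in each panel, with 1 colour per gene. In DP the Jak2 block is smaller, and the Socs3 and Jak3 blocks are larger, than in DN.

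Of the 4 STAT genes of the set, 3 rose and 1 fell. Stat5a, one of the closely related pair of STAT5 factors that act downstream of IL-2 and similar cytokines, had 38.3, 41.6 and 42.6 CPM in the DP libraries and 16.2, 16.9 and 18.8 CPM in the DN libraries. It rose by 1.25 ± 0.08 (edgeR adjusted p = 6.07e-22), the largest change among these 4, and the groups were well separated. Its partner Stat5b had 65.0, 72.1 and 69.2 CPM in the DP libraries and 84.3, 77.0 and 84.5 CPM in the DN libraries. The groups did not overlap, but the gap was narrow, a fall of 0.25 ± 0.05 (edgeR adjusted p = 1.44e-05).

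The pair therefore differed in direction. Per kilobase of exon, Stat5a made up 31.4%, 31.0% and 32.3% of Stat5a and Stat5b together in the DP libraries and 13.0%, 14.6% and 14.7% in the DN libraries. The difference was 17.5 percentage points (exact permutation p = 0.1, two-sided, again the lowest possible). With the length of the longest transcript in place of all exons, the share was 43.9% ± 0.803 in DP and 21.8% ± 1.36 in DN (SD, n = 3 each). A scaling factor of a library cancels in such a share.

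Stat5b, Stat5a and Stat3 are neighbours on chromosome 11 of mm10. Stat5b (ENSMUSG00000020919.11) runs from 100780731 to 100850724 on the minus strand, Stat5a (ENSMUSG00000004043.14) from 100859351 to 100885169 on the plus strand and Stat3 (ENSMUSG00000004040.16) from 100885098 to 100939540 on the minus strand. Stat5b and Stat5a are 8626 bases apart, and the ends of Stat5a and Stat3 share 72 bases of exon on opposite strands. Their reads there cannot be told apart if strand was not used in counting, a setting not given in the sources used here. Of the 50-base words in the transcripts of Stat5a, 8.52% also occurred in another gene's transcripts, and of those of Stat5b 10.98%, with 608 words shared between the pair. Reads that lie wholly in such words cannot be assigned to either gene with certainty.

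The likeness of the pair reaches their starts. RefSeq lists 2 starts for each gene, and a 60-base stretch before the downstream start of Stat5a and one across the downstream start of Stat5b were identical at 53 bases, shown in capitals to let the near-copies be compared.
Stat5a, chr11:100860423-100860482, plus strand: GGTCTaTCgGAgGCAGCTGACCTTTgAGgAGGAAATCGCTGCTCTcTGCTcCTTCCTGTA
Stat5b, chr11:100822563-100822622, minus strand: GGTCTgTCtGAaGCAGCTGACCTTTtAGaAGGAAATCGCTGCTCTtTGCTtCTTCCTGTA
The stretch begins 61 bases before that Stat5a start and 52 bases before that Stat5b start, in build GRCm38.p6. The count tables do not say from which start a transcript came.

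Stat6, the factor of IL-4 and IL-13, had 138, 140 and 134 CPM in the DP libraries and 93.1, 99.7 and 96.4 CPM in the DN libraries. All DP libraries were higher, by 0.51 ± 0.04 (edgeR adjusted p = 6.98e-16). Stat3, the factor of IL-6, IL-10 and IL-21, had 139, 146 and 137 CPM in the DP libraries and 107, 114 and 107 CPM in the DN libraries. It rose by 0.37 ± 0.04 (edgeR adjusted p = 4.97e-11), again without overlap. Stat6 (ENSMUSG00000002147.18) lies on chromosome 10 from 127642986 to 127660957 of mm10, and 40 bases of its exons overlap Nab2 on the other strand. With library totals in place of TMM factors the log2 changes were 0.31 for Stat6, 0.17 for Stat3, -0.45 for Stat5b and -0.59 for Jak1, and all 4 still passed.

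None of the changes of Jak1, Stat3, Stat5b and Stat6 passed when tested against a minimum of 1.5-fold, while those of Socs2, Socs3, Stat5a and Jak3 did. In that test 34.3% of all tested genes passed. Of the 9 tested genes, 6 had all DP libraries above all DN libraries and 2 had all below, against 39.0% and 38.0% of all tested genes, 77.0% together.

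**Figure D3:**
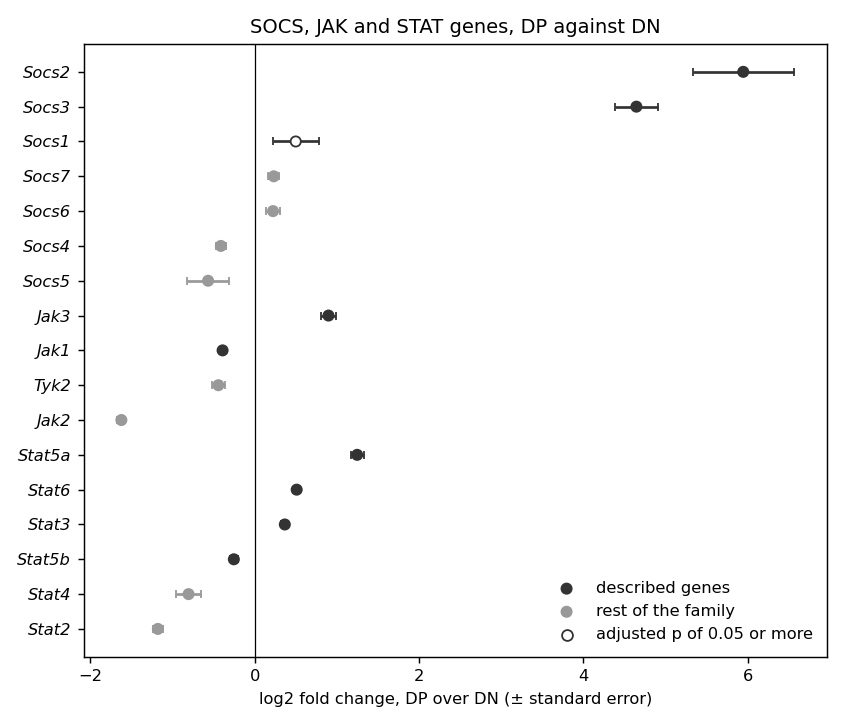
Log2 fold changes of DP over DN (horizontal axis, ± standard error) for the 9 tested genes described here (dark) and the 8 further SOCS, JAK and STAT genes reported (grey), ordered by size within each family; an open symbol marks an adjusted p of 0.05 or more. Socs2 and Socs3 stand far to the right at 5.94 and 4.64, and Jak2 and Stat2 lie lowest at -1.62 and -1.18.

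Most of the further genes of the family reported here were lower in DP. Of 8 further SOCS, JAK and STAT genes, 6 fell and 2 rose, with a median of -0.50. Among all tested genes 37.6% passed as lower in DP and 38.3% as higher. The genes described first were chosen with earlier results of these data known. A contrast between them and these 8 therefore depends on how the family was split, and was not tested. Stat2, a factor of type I interferon signalling, averaged 29.0 ± 2.55 CPM in DP and 65.7 ± 1.81 CPM in DN, a fall of 1.18 ± 0.06 (edgeR adjusted p = 2.59e-25). Stat4, the factor of IL-12, fell by 0.80 ± 0.15.

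Among the other SOCS genes, Socs4 fell by 0.41 ± 0.06, and Socs5 fell by 0.57 ± 0.26 with overlapping groups (edgeR adjusted p = 0.0446). Socs6 (0.22 ± 0.09) and Socs7 (0.23 ± 0.06) were the 2 that rose, Socs6 also with overlapping groups (edgeR adjusted p = 0.0215). With library totals alone neither passed, at 0.03 and 0.04, and Socs6 did not pass with upper-quartile factors. Library totals alone moved the median of all genes to -0.19, and under that scaling 38.0% of the genes that passed were higher in DP, against 50.5% with TMM factors.

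The summed SOCS and CIS level was 18.4 ± 0.123 CPM per kilobase of exon in DP and 15.9 ± 0.472 in DN, and 17.2 ± 0.138 in DP and 17.0 ± 0.501 in DN with library totals alone. Socs3 made up 16.6% ± 0.504 of the 8 genes in DP and 0.735% ± 0.0859 in DN, and Socs2 1.41% ± 0.227 in DP and 0.0168% ± 0.0291 in DN (SD, n = 3 each). In both of these shares the groups did not overlap (exact permutation p = 0.1, two-sided, the lowest possible).

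Ordered by level per kilobase of exon, the 10 genes ran in DP from Jak1 (45.9 CPM per kilobase) over Stat6 (31.2), Stat3 (14.8), Stat5b (12.4), Stat5a (5.73), Jak3 (5.39), Socs3 (3.05), Socs1 (0.687) and Socs2 (0.260) to Cish (0.0238). The libraries of Stat5a and Jak3 overlapped in that order, and the other DP neighbours did not. In DN the order was Jak1 (60.1), Stat6 (21.9), Stat5b (14.8), Stat3 (11.5), Jak3 (2.92), Stat5a (2.42), Socs1 (0.498), Socs3 (0.117), Cish (0.00545) and Socs2 (0.00275). The libraries of Jak3 and Stat5a overlapped there as well, and Cish and Socs2 had 1 count each. The order of Stat5b and Stat3 in DN and of Jak3 and Stat5a in DN turned when the longest transcript was used as the length. The DP order stayed the same with that length. The DP libraries of Socs1 and Socs2 then overlapped, and those of Stat5a and Jak3 did not. The most visible change of place was that of Socs3, below Socs1 in DN and above it in DP.

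Receptor genes moved in both directions. Of 36 receptor chains that signal through this pathway 23 were tested, and 9 rose, 7 fell and 7 did not pass, with a median of 0.15 that was -0.05 with library totals alone. Among all tested genes 38.3% rose and 37.6% fell. Il2rb, the beta chain of the IL-2 and IL-15 receptors, had 11.6, 12.4 and 9.96 CPM in the DP libraries and 1.26, 0.840 and 0.616 CPM in the DN libraries, a rise of 3.59 ± 0.21 (edgeR adjusted p = 1.47e-23). Il21r, the receptor of IL-21, rose by 0.67 ± 0.04, with 194 ± 8.63 CPM in DP and 122 ± 1.84 CPM in DN. Il4ra, the receptor chain upstream of STAT6, averaged 62.2 ± 2.34 CPM in DP and 118 ± 8.99 CPM in DN, a fall of 0.91 ± 0.05, so that it and Stat6 moved in opposite directions. Il10ra fell by 2.13 ± 0.10 and Il5ra by 3.97 ± 0.24. Il2rg, the common gamma chain that Jak3 binds, did not pass, with 5.58 ± 1.05 CPM in DP and 4.54 ± 0.367 CPM in DN (0.29 ± 0.17, edgeR adjusted p = 0.115).

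Most ligand genes were at or near 0 in both subsets. Of 27 ligands 14 had no count in any library, Il6, Ifng and Ifnb1 among them, and only 3 were tested. Il27 rose by 4.01 ± 0.38 and Ebi3 by 2.58 ± 0.39, which encode the chains of the cytokine IL-27, and Il12a fell by 1.43 ± 0.28. Il27 had 55, 82 and 56 counts in the DP libraries and 2, 1 and 4 in the DN libraries. Il21 and Il4, the main T cell ligands of the germinal centre, had at most 3 counts in any DP library and none in DN.

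Among phosphatases, PIAS proteins and adaptors that tune the pathway, 5 of 17 tested genes rose, 9 fell and 3 did not pass, with a median of -0.38. Under the library-total scaling the counts were 3 higher and 10 lower, and the median was -0.58. Among all tested genes 38.3% rose and 37.6% fell with TMM factors. The phosphatase genes Ptpn1 (0.48 ± 0.04), Ptpn2 (0.54 ± 0.05) and Ptpn11 (0.52 ± 0.04) rose, of which Ptpn1 and Ptpn2 encode enzymes that dephosphorylate JAKs and STATs. Ptpn6, another phosphatase gene of the list, went the other way (-0.38). Ptprc, which encodes CD45, fell by 0.71 ± 0.03 and the ubiquitin ligase gene Cbl by 0.59 ± 0.05.

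Genes linked to STAT3, STAT5 and STAT6 as targets were more often higher than lower in DP. Of 23 tested genes of this list 15 rose and 6 fell, with a median of 0.70. Under the library-total scaling 13 were higher and 7 lower, at a median of 0.50. Among all tested genes 38.3% passed as higher in DP and 37.6% as lower with TMM factors. With library totals 3288 of all tested genes were higher and 5359 lower. The summed level of the list was lower in DP, at 1203 to 1219 CPM against 1300 to 1354 CPM in DN. Batf (3.64 ± 0.07), the cyclin gene Ccnd2 (5.14 ± 0.11) and Myc (3.55 ± 0.09) rose, and the survival gene Mcl1 (-0.96 ± 0.04) and Bcl6 (-1.06 ± 0.04) fell. All of these have other regulators as well, and the list was chosen with earlier results of these data known.

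**Figure D4:**
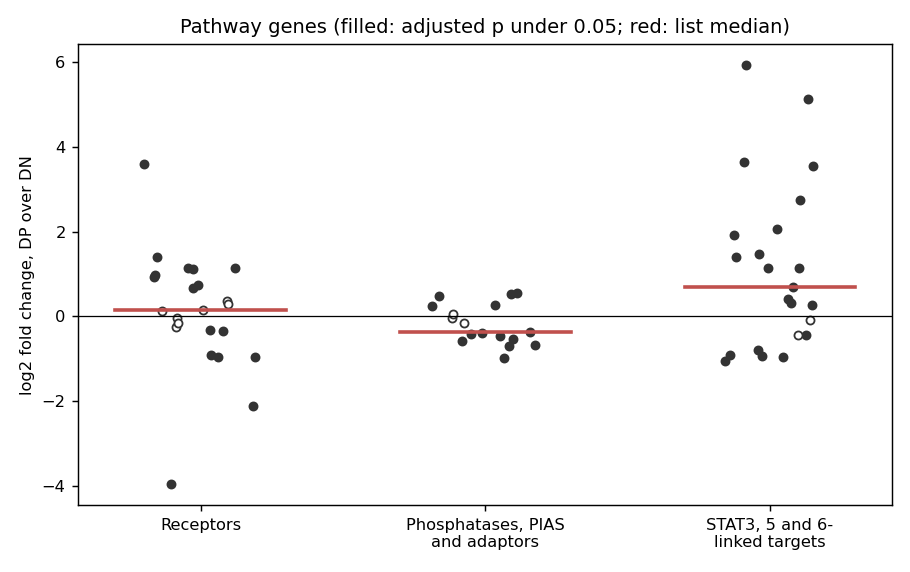
Log2 fold changes of DP over DN (vertical axis) for the tested genes of 3 pathway lists, 1 point per gene, spread sideways at random; filled points have an adjusted p under 0.05 and red lines mark list medians. The medians are 0.15 for receptors, -0.38 for phosphatases, PIAS and adaptors and 0.70 for STAT3, 5 and 6-linked targets.

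Markers of other cell types moved in both directions. Among all tested genes 38.3% passed as higher in DP and 37.6% as lower. Of 11 macrophage markers 8 were tested, 7 fell and 1, Cd68, rose (it did not pass with library totals alone). Their summed level was 13.5 to 15.9 CPM in DP and 28.3 to 31.2 CPM in DN. Of 9 neutrophil markers 3 were tested and all fell, with sums of 0.949 to 1.35 CPM in DP and 4.24 to 6.09 CPM in DN and Ly6g at 0 throughout. Of 10 erythroid markers 6 were tested and all fell, with sums of 15.9 to 18.3 CPM in DP and 62.1 to 72.5 CPM in DN. Of 12 T cell markers 2 were tested, and Thy1 rose while Cd4 fell, with sums of 6.29 to 7.48 CPM in DP and 3.93 to 5.67 CPM in DN. The T cell receptor genes Trac, Trbc1 and Trbc2 had at most 5 counts in any library. Of 6 plasma cell markers 5 were tested, 3 rose and 1 fell, with sums of 297 to 311 CPM in DP and 391 to 402 CPM in DN. Of 8 naive B cell markers 7 were tested, 1 rose and 4 fell, with sums of 102 to 109 CPM in DP and 104 to 113 CPM in DN. Of 6 dendritic cell markers 3 were tested and all rose, with sums of 41.5 to 43.6 CPM in DP and 24.7 to 25.2 CPM in DN, and Xcr1 was at 0 throughout. In such bulk libraries fewer cells of a type and less RNA per cell cannot be told apart, and the part of other cells in the results above was not tested.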

How the data were processed

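The deposited values are raw read counts per gene, 1 table per library, not normalised by the authors. Per the submitters' processing notes, the tools included HTSeq 0.13.5, STAR 2.7.10a and Trim Galore 0.6.6, with mm10. Annotation release, strand setting and any molecular identifiers: not given in the sources used here. Libraries were stranded and made from polyadenylated RNA, per the labels. Summary rows that name no gene held 9.56% of counts in DP and 12.6% in DN on average and were left out. If PCR duplicates remain, counting intervals understate the error.

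DP was compared with DN by the quasi-likelihood test of edgeR 4.0.16 in R 4.3.3 (filterByExpr with a minimum count of 10, TMM factors, robust estimation, no block). The code was tried on simulated data in which few genes changed, all with the same scatter. That trial does not bear on scaling or error rates where most genes differ, as here. The filter left 11296 genes, among them 9 of the 10 described. Standard errors came from the fold change and its F statistic. Lengths and positions came from GENCODE M21. Shares of levels were compared with exact permutation tests (scipy 1.17.1). Named genes were the 10, their remaining family, the 5 genes of smallest p in each pathway list and the nearest patterns of the members with the highest and lowest fold change. Il2rg, Il21, Il4, Il6, Ifng, Ifnb1, Ccl17, Ccl22 and Ptpn6 were named after their values were seen. The 10 genes and all lists were chosen with earlier results of these data known. Some genes and 1 list are not reported here. Alternatives were other scalings and filters, DESeq2 1.42.0, limma-voom, no robust weights, thinned DP libraries, no immunoglobulin genes, stricter thresholds, a block for the replicate number, and leaving out libraries singly.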

Additional observations from a re-analysis of the deposited data

How the results depend on the processing

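The 8 calls among the 10 genes kept their direction and their side of the threshold in the 17 alternatives run on each (16 for Socs1 and Socs2), and Socs1 passed in none, with adjusted p between 0.0631 and 0.446. Under the test against a minimum fold of 1.5, 4 of the 10 passed, 4 higher and 0 lower in DP, and over all genes 3876 passed, 1964 higher and 1912 lower. Over the other alternatives the fold changes ranged from 4.45 to 4.79 for Socs3, 5.17 to 8.15 for Socs2, 1.05 to 1.32 for Stat5a, 0.70 to 0.98 for Jak3, 0.31 to 0.59 for Stat6, 0.17 to 0.44 for Stat3, -0.45 to -0.18 for Stat5b and -0.59 to -0.32 for Jak1. Socs1 and Socs2 gave no value under the stricter filter. Leaving out 1 library at a time gave 8251 to 8558 called genes. Same-numbered libraries did not deviate together (r from -0.02 to 0.06 across genes), and differently numbered ones had r from -0.04 to 0.04. The numbers were not taken as pairs, but these values cannot tell which libraries share a mouse. With the replicate number as a block 8589 genes were called, among them the same 8 of the 10. Depth limits Cish, Socs2 and Socs3 in DN, where 1, 1 and 11 counts were found in all.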

Other observations

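Single genes of the marker and target lists had patterns not described above. Thy1, a T cell marker, had 5.46, 5.02 and 5.32 CPM in the DP libraries and 1.02, 1.26 and 1.13 CPM in the DN libraries. Zbtb46, a transcription factor gene of dendritic cells, had 29, 33 and 27 counts in the DP libraries and none in the DN libraries, while the dendritic cell gene Xcr1 had none in any library. Ccl22, a chemokine gene of the STAT6-linked list, had 50, 51 and 28 counts in the DP libraries and 0, 1 and 0 in the DN libraries, and Ccl17 had none in any library.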
